A study of Mus musculus with 40 samples.

Results

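The 10 genes described here are Sox9, Sox2, Nfia, Nfib, Notch1, Notch2, Hes1, Hes5, Id3 and Id4. They are a set of glial transcription factors, Notch receptors, Hes repressors and Id genes, not all of them particular to astrocytes. They were chosen by symbol from a table of 26792 gene symbols, and all 10 were found in it and passed the filter on low counts in every comparison. Sox9, Sox2, Nfia and Nfib encode DNA-binding proteins that direct neural progenitors towards glia and remain on in mature astrocytes. Notch receptors are cut when a ligand on a neighbouring cell binds them, and the freed inner part enters the nucleus, joins RBPJ and switches on repressors of the Hes and Hey families, which hold back neuronal genes. Id proteins pair with E proteins and keep them off DNA, and bone morphogenetic protein (BMP) signalling is a known inducer of Id genes.

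Messenger RNA was counted in dissected mouse hypothalamus from the Aldh1l1 eGFP-L10a line, in which the Aldh1l1 promoter places a tagged ribosomal protein in astrocytes, so that translating ribosome affinity purification (TRAP) can draw astrocyte ribosomes out of whole tissue. Every animal in every group carried this transgene. The groups were orchiectomised mice on a high-fat diet (ORX-HFD, 7 sample numbers), sham-operated mice on the same diet (Sham-HFD, 6) and sham-operated mice on chow (Sham-chow, 7), with diets given for 4 weeks. Each number had 1 immunoprecipitate, called the pull-down here, and 1 supernatant, which made 40 libraries. The age of the mice is not given in the sources used here, and the labels do not state that the pull-down and supernatant of 1 number came from 1 mouse, so the errors and p-values below describe the spread between these samples, which may be partly technical. Orchiectomy was compared on the high-fat diet, since no orchiectomised chow group was analysed here.

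Levels are given in CPM, the counts of a gene scaled to a common library total. Total estimated counts ran from 7714803 to 20792147 in the pull-downs and from 8739269 to 12931843 in the supernatants. Of 12 astrocyte markers, 12 were called higher in pull-downs, among them Aldh1l1 (158 ± 21.4 CPM in pull-downs and 5.17 ± 3.98 CPM in supernatants; SD, n = 20 each) and Gfap (558 ± 98.0 CPM in pull-downs and 19.6 ± 7.77 CPM in supernatants). All 10 neuron markers, all 8 oligodendrocyte markers and all 8 microglia markers were called lower in pull-downs. Endothelial markers did not follow that pattern, since 8 of 8 were called higher in pull-downs, at a summed 209 to 1569 CPM in pull-downs against 77.1 to 121 CPM in supernatants. Of the remaining lists, 6 of 7 mural cell markers, 4 of 9 tanycyte and ependymal markers and 2 of 6 oligodendrocyte precursor markers were called higher, and 1, 4 and 4 were called lower. Over all 15629 genes tested between fractions, 43.1% were called higher and 43.7% lower. No marker of any list was at 0 in every library. The noncoding RNA gene Gm42418 took 1.07 to 18.2% of pull-down counts and 0.127 to 3.67% of supernatant counts. Within the 10 genes, the pull-downs of sample number 12 (Sham-chow) and sample number 10 (ORX-HFD) stood apart from the rest, with the lowest Hes5 and highest Id4. They were chosen after seeing the data. Treatment estimates printed in the text that moved by over 1.5 times without them are given with and without them. Some that are only drawn moved as much, such as Hes1 for ORX-HFD over Sham-chow (0.16, and 0.04 without them).

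The stretch around the transcription start is shown for Hes5, Id4 and Notch1, because Hes5 and Id4 departed in opposite directions in the pull-downs that stood apart and Notch1 had the smallest p-value in the treatment comparisons. Each stretch runs from 250 bases before to 50 bases after the start, 5′ to 3′ on the gene's own strand, from RefSeq on build GRCm38.p6, of which 7 of the 10 promoters were used here. Capitals in Hes5 (chr4:154960673-154960972, plus strand) and Id4 (chr13:48260866-48261165, plus strand) mark TGGGAA or its reverse complement, the core that RBPJ binds. Capitals in Notch1 (chr2:26503773-26504072, minus strand) mark CACNAG or its reverse complement, an N-box of the kind Hes proteins bind.
Hes5: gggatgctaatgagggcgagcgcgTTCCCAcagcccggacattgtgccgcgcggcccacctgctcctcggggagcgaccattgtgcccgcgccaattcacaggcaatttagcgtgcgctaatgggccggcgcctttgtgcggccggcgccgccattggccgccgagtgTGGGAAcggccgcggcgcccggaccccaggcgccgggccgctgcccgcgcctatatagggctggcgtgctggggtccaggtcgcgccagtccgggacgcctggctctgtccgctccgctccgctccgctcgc
Id4: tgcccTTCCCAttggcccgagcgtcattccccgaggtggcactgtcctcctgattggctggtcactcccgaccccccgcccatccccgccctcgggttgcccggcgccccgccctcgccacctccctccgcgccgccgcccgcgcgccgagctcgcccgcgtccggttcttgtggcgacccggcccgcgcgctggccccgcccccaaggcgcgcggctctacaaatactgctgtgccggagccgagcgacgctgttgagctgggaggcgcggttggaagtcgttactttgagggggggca
Notch1: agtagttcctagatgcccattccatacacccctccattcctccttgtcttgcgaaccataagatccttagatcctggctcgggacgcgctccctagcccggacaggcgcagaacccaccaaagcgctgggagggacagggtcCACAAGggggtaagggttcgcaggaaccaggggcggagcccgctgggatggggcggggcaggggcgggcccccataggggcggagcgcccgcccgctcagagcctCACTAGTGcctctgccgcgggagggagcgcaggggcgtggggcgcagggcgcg
In the Hes5 stretch TGGGAA was found at positions 25 and 169 counted from the 5′ end, and in the Id4 stretch at position 6. Across 32851 promoters of the same length, 25.6% held TGGGAA on either strand. None of Sox2, Nfia, Notch1, Notch2 and Id3 held it in this window. CACNAG was found at positions 143, 248 and 250 of the Notch1 stretch, the last pair being overlapping matches on opposite strands, once in Notch2, at position 4, and once in Id4, at position 169. The same search found CACNAG in 42.5% of all promoters. The E-box CANNTG, which E proteins bind and Id proteins keep them from, was found 5 times in Nfia, once in Sox2 and once in Hes5, and in 72.3% of all promoters. These matches describe letters only, and the RefSeq starts of Notch1 and Id4 differ from the starts of the GENCODE gene spans given with their levels.

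All 10 genes were more abundant in the pull-downs than in the supernatants, by 3.14-fold for Id4 to 20.6-fold for Sox9, and in no gene did a pull-down library fall within the supernatant range. Each of the 10 was called higher (edgeR quasi-likelihood test, Benjamini-Hochberg adjusted p under 0.05 over 15629 genes), where 43.1% of all genes tested were called higher and 43.7% lower. Non-overlapping groups with the pull-downs above were seen in 10 of 10 members and in 19.1% of all genes tested. The median log2 fold change was 3.18 over the 10 genes and -0.01 over all genes tested. The scaling between libraries (TMM) centres the bulk of genes near 0, so fold changes and shares called are relative to that. Mitochondrial genes took 0.643 to 1.63% of pull-down counts and 19.2 to 27.8% of supernatant counts. In these bulk libraries a smaller number of cells of a type and less RNA per cell cannot be told apart.

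**Figure D1:**
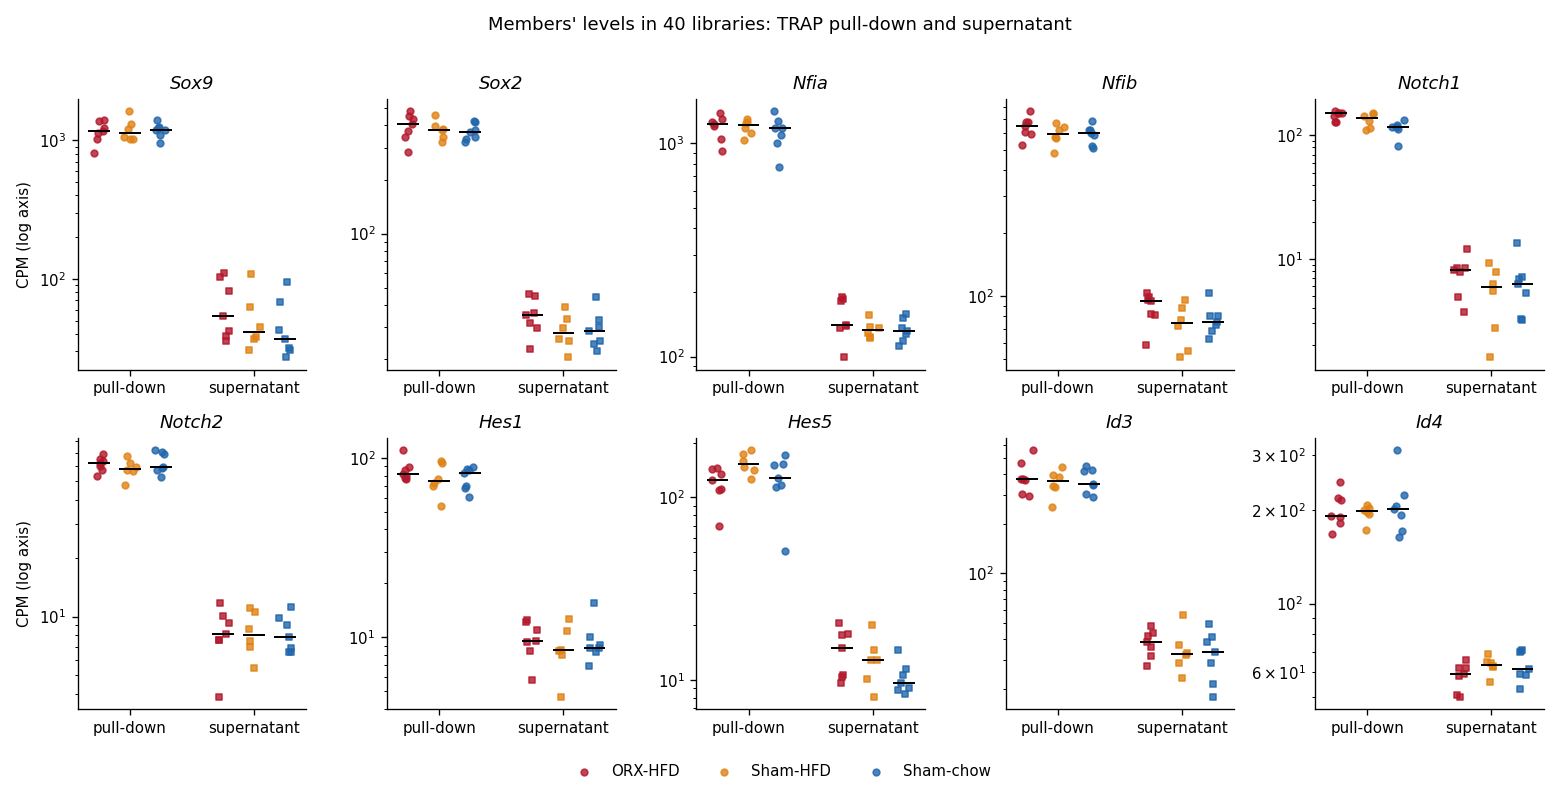
Level in CPM (log axis) of the 10 genes in each of 40 libraries, pull-downs as circles on the left and supernatants as squares on the right of each panel, coloured by treatment, with a black line at each group's median. In every panel the pull-downs sit above the supernatants, while the 3 treatments overlap within each fraction.

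Among the glial transcription factors, Sox9 (chromosome 11, 112782224 to 112787760, plus strand, in the GENCODE annotation of GRCm38) drives the switch of progenitors to gliogenesis. Sox9 ran from 814 to 1627 CPM (median 1185) in the 20 pull-downs, against 27.2 to 110.1 CPM (median 42.6) in the 20 supernatants. The lowest pull-down was 7.40 times the highest supernatant, and the fitted log2 fold change was 4.36 ± 0.18 (SE), with 113 of all tested genes above it. Sox2 (chromosome 3, 34650405 to 34652461, plus strand), a factor of neural progenitors that astrocytes keep, ran from 285 to 482 CPM (median 376) in pull-downs, against 20.4 to 46.1 CPM (median 30.0) in supernatants. Its log2 fold change was 3.56 ± 0.09, and the lowest pull-down was 6.18 times the highest supernatant. Nfia (chromosome 4, 97772734 to 98118874, plus strand), a nuclear factor I protein that opens astrocyte genes, ran from 771 to 1420.0 CPM (median 1196) in pull-downs, against 99.0 to 189 CPM (median 136) in supernatants. Nfib (chromosome 4, 82290173 to 82705750, minus strand), its close relative, ran from 485 to 767 CPM (median 615) in pull-downs, against 50.9 to 104 CPM (median 80.3) in supernatants. The log2 fold changes of the NFI pair lay close together, at 3.0 ± 0.07 for Nfia and 2.88 ± 0.08 for Nfib.

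The Notch receptors differed from each other in enrichment. Notch1 (chromosome 2, 26457903 to 26516663, minus strand) ran from 82.4 to 158 CPM (median 130.0) in pull-downs, against 1.59 to 13.5 CPM (median 6.59) in supernatants. Notch2 (chromosome 3, 98013527 to 98150361, plus strand) ran from 47.9 to 72.2 CPM (median 59.4) in pull-downs, against 3.87 to 11.7 CPM (median 8.02) in supernatants. Neither receptor overlapped between fractions, and the fitted log2 fold change was 4.27 ± 0.16 (19.3-fold) for Notch1 and 2.81 ± 0.09 (6.99-fold) for Notch2. The 95% interval of Notch1, 3.94 to 4.59, lay above that of Notch2, 2.62 to 2.99.

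The Hes genes encode the repressors that Notch switches on. Hes1 (chromosome 16, 30064384 to 30067796, plus strand) ran from 54.1 to 111 CPM (median 80.6) in pull-downs, against 4.68 to 15.5 CPM (median 8.95) in supernatants, with a log2 fold change of 3.03 ± 0.10. Hes5 (chromosome 4, 154960923 to 154962371, plus strand) ran from 50.9 to 182 CPM (median 138) in pull-downs, against 8.11 to 20.5 CPM (median 11.1) in supernatants, with a log2 fold change of 3.34 ± 0.13. Hes5 had the widest spread of the 10 genes across pull-downs, with the highest library 3.58 times the lowest. The fractions still did not overlap for Hes5, whose lowest pull-down was 2.49 times its highest supernatant.

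The Id genes stood apart from each other as well. Id3 (chromosome 4, 136143497 to 136145755, plus strand) ran from 251 to 559 CPM (median 371) in pull-downs, against 18.0 to 56.2 CPM (median 34.7) in supernatants. Id4 (chromosome 13, 48261228 to 48266026, plus strand) ran from 164 to 312 CPM (median 199) in pull-downs, against 50.2 to 70.7 CPM (median 62.1) in supernatants. The log2 fold change was 3.33 ± 0.11 for Id3 and 1.65 ± 0.06 for Id4, the smallest of the 10. Id4 nevertheless lay higher in pull-downs without overlap, and 2093 of the genes tested had a larger log2 fold change than Id4. Adjusted p-values of the 10 genes ran from 7.83e-32 for Nfia to 3.49e-24 for Sox9 (edgeR).

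**Figure D2:**
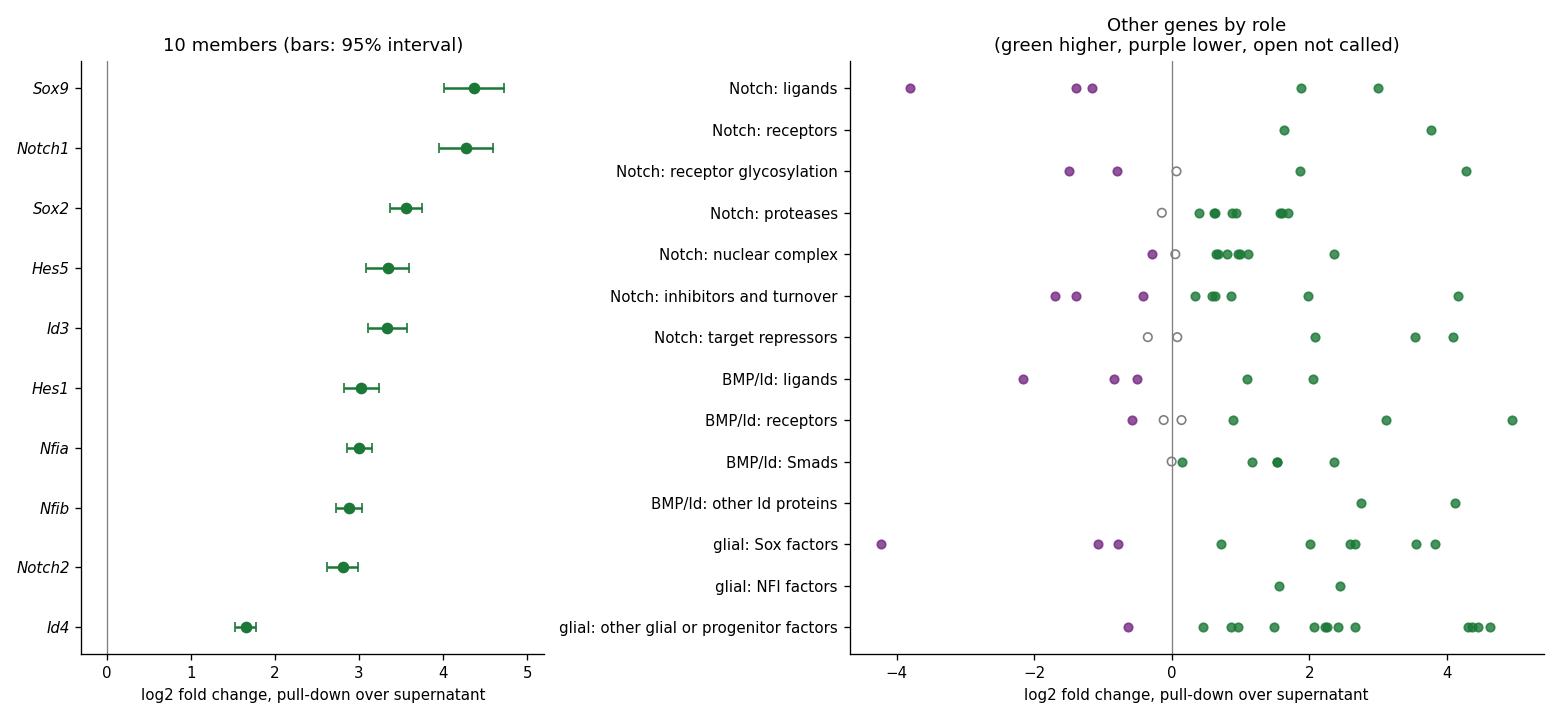
Fitted log2 fold change of pull-downs over supernatants, on the left for the 10 genes with 95% intervals, on the right for other genes of the Notch pathway, of BMP signalling and of glial factors by role (1 point a gene). Sox9 (4.36) and Notch1 (4.27) lead and Id4 (1.65) comes last, while Notch ligands lie on both sides of 0.

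The order of enrichment was also described as the log2 ratio of the pull-down over the supernatant with the same sample number (CPM + 0.5), although the numbers are not known to mark 1 mouse. Sox9 averaged 4.53 ± 0.60, Notch1 4.33 ± 0.66 and Sox2 3.61 ± 0.42 (SD, n = 20). Next came Id3 at 3.41 ± 0.54, Hes5 at 3.34 ± 0.55, Nfia at 3.06 ± 0.34, Hes1 at 3.05 ± 0.43, Nfib at 2.95 ± 0.38 and Notch2 at 2.83 ± 0.40. Id4 was last at 1.70 ± 0.31. Of the neighbours in this order, Notch1 lay above Sox2 in 19 of 20 sample numbers and Notch2 lay above Id4 in 20 of 20. Sox9 lay above Notch1 in 12 of 20, Id3 above Hes5 in 10 of 20 and Nfia above Hes1 in 11 of 20, and each of these differences was smaller than its SD. The other neighbours were in order in 14 to 16 of 20, with mean differences of 0.10 to 0.28, also smaller than their SDs (0.26 to 0.46). These SDs give the spread between sample numbers, not the error of a mean, and the order was not tested.

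The wider Notch pathway had genes on both sides, within most roles too. Of 60 genes tested, 37 were called higher and 16 lower in pull-downs, beside 43.1% and 43.7% of all genes tested. The list's median log2 fold change was 0.62. Both other receptors were higher, Notch3 at 36.0 ± 7.39 CPM in pull-downs and 2.54 ± 1.03 CPM in supernatants (log2 fold change 3.77 ± 0.14) and Notch4, known from endothelium, by 1.62 ± 0.13. The ligands did not move as a group. Jag1 was higher by 3.0 ± 0.15 and Dll4, an endothelial ligand, by 1.88 ± 0.29, whereas Dll3 was lower by a log2 fold change of -3.80 ± 0.25, Dll1 of -1.39 ± 0.26 and Jag2 of -1.16 ± 0.22. Among the Hes and Hey genes outside the 10, not all of which need be Notch targets, Heyl (4.09 ± 0.17), Hey2 (3.53 ± 0.13) and Hey1 (2.08 ± 0.08) were called higher. Hes6 was at 16.3 ± 3.43 CPM in pull-downs and 14.7 ± 2.77 CPM in supernatants and was not called (log2 fold change 0.08 ± 0.09). Hes7 was near 1 CPM in both fractions, at 0.84 ± 0.45 CPM in pull-downs and 1.03 ± 0.30 CPM in supernatants, and was not called either (-0.35 ± 0.21, edgeR adjusted p = 0.12). DESeq2, limma voom and the second deposited table did call Hes7 lower, by -0.41, -0.49 and -0.24. Endothelial and mural cell markers were called higher in the same pull-downs, 8 of 8 and 6 of 7. The part of those cells in the receptor, ligand and Hey values was not tested.

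Further down the pathway, 8 of 9 genes of the proteases that cut the receptor were called higher and none lower. Their log2 fold changes were modest, at 0.40 to 1.69, and 43.1% of all genes tested were called higher. By p-value, the higher genes were led by Maml2, a coactivator of the Notch complex (2.35 ± 0.07), Pofut1, which adds fucose to the receptors (1.86 ± 0.05), the E3 ligase gene Dtx1 (1.98 ± 0.07) and Hey2. The lower ones were led by the ubiquitin ligase genes Neurl1a (-3.71 ± 0.11) and Neurl1b (-3.49 ± 0.18), by the Numb relative Numbl (-1.70 ± 0.08) and by Dlk2 (-3.41 ± 0.18). Of 4 genes of ligand uptake, which acts in the ligand-bearing cell, 1 was called higher and 3 lower, beside 43.1% and 43.7% of all genes.

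A list of BMP signalling genes and partners of the Id proteins had 17 of 26 genes called higher in pull-downs and 5 lower, with a median log2 fold change of 1.05. The BMP ligands, receptors, Smads and extracellular inhibitors made up 21 of these, of which 12 were called higher and 5 lower, beside 43.1% and 43.7% of all genes, and the other 5, Id and E protein genes, were all called higher. The receptors Bmpr1b (186 ± 21.5 CPM in pull-downs and 5.89 ± 2.51 CPM in supernatants; log2 fold change 4.95 ± 0.14) and Bmpr1a (3.11 ± 0.11), the signal carrier Smad5 (1.52 ± 0.04) and Id1 (2.75 ± 0.11) were among the higher. Bmp2 (-2.17 ± 0.16), Bmp5 (-0.85 ± 0.21), the BMP antagonist gene Grem1 (-1.28 ± 0.28) and the receptor gene Acvr2b (-0.58 ± 0.08) were lower. The list of other Sox, NFI and glial factors had 21 of 25 called higher and 4 lower, beside the same 43.1% and 43.7%, with a median of 2.22. Sox6 (2.66 ± 0.07), Sox1 (3.55 ± 0.10), Stat3 (2.07 ± 0.06) and Nfix (2.44 ± 0.07) had the smallest p-values of the higher genes. Among the lower ones were Sox3 (-1.08 ± 0.12) and Sox11, a factor of immature neurons (-0.78 ± 0.10). Sox10, an oligodendrocyte factor, was lower too, at 3.65 ± 1.18 CPM in pull-downs and 64.7 ± 17.8 CPM in supernatants (log2 fold change -4.22 ± 0.14). Other genes of the list known from the oligodendrocyte lineage were called higher instead. These were Olig1 (1.48 ± 0.09), Olig2 (0.45 ± 0.07), Nkx2-2 (2.26 ± 0.11) and Sox8 (2.01 ± 0.11).

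No member was called between treatments in either fraction, by edgeR, DESeq2 or limma voom. In the pull-downs, 0 of 10 were called for ORX-HFD against Sham-HFD, where 0.0% of 14059 genes tested were called, and 0 of 10 for Sham-HFD against Sham-chow, also with 0.0% called. For ORX-HFD against Sham-chow, 0 of 10 were called and 0.0142% of genes tested. At an unadjusted p under 0.05 (edgeR), the members counted 0, 0 and 1, where 6.53%, 1.71% and 11.1% of all genes tested passed it. The ORX-HFD comparisons share the ORX-HFD libraries, and the comparisons with Sham-chow share the Sham-chow libraries, so their values stand side by side and are not independent.

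**Figure D3:**
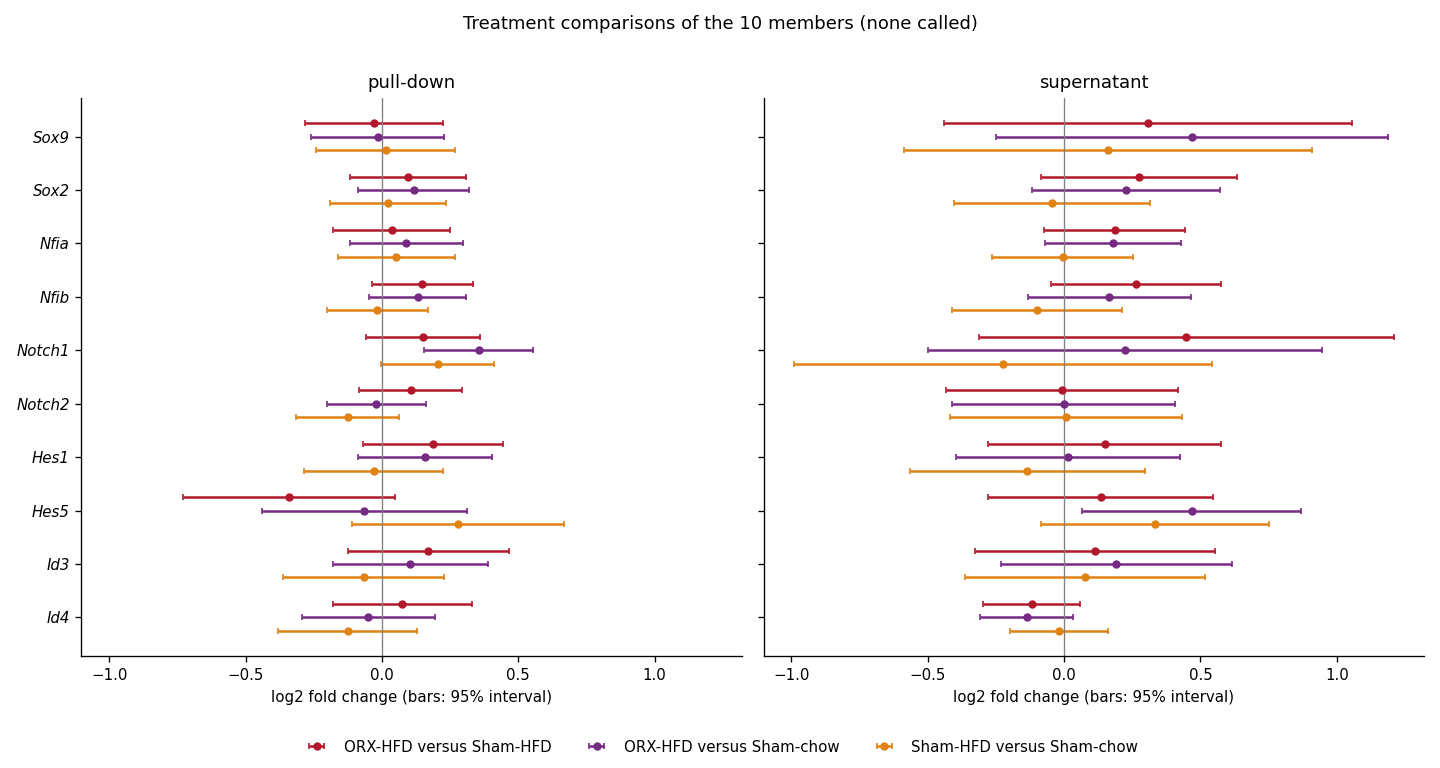
Log2 fold changes of the 10 genes with 95% intervals for ORX-HFD over Sham-HFD, ORX-HFD over Sham-chow and Sham-HFD over Sham-chow, in pull-downs on the left and supernatants on the right. Pull-down estimates lie between -0.34 and 0.35, and the intervals exclude 0 for Notch1 in pull-downs and Hes5 in supernatants, both for ORX-HFD over Sham-chow.

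Notch1 had the smallest unadjusted p of the 10. In pull-downs it ran from 128 to 158 CPM (median 151) in ORX-HFD and from 112 to 152 CPM (median 138) in Sham-HFD, against 82.4 to 134 CPM (median 118) in Sham-chow. Of the 7 ORX-HFD pull-downs, 5 lay above every Sham-chow pull-down, and the groups overlapped through the other two. The log2 fold change of ORX-HFD over Sham-chow was 0.35 ± 0.10 (95% interval 0.15 to 0.55; edgeR adjusted p = 0.369). Across the alternatives it stayed between 0.29 and 0.36, with adjusted p-values from 0.144 to 0.58, and was lowest without sample numbers 10 and 12. ORX-HFD over Sham-HFD gave 0.15 ± 0.10 and Sham-HFD over Sham-chow 0.20 ± 0.10, neither of them called (edgeR adjusted p = 0.755 and 1.00). Endothelial markers, whose cell type also carries Notch1, were higher in ORX-HFD than in Sham-chow pull-downs for 8 of 8 genes in estimate, with a median log2 fold change of 1.08, 7 of 8 under an unadjusted p of 0.05 and none called. Their summed level was 321 to 1569 CPM in ORX-HFD, 236 to 981 CPM in Sham-HFD and 209 to 777 CPM in Sham-chow pull-downs, and their part in the Notch1 values was not tested.

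Hes5 took the opposite sign to Notch1 for ORX-HFD over Sham-HFD in the pull-downs. It ran from 69.4 to 144 CPM (median 125) in ORX-HFD and from 127 to 182 CPM (median 153) in Sham-HFD, against 50.9 to 170.5 CPM (median 128) in Sham-chow. The groups overlapped, with 4 of 7 ORX-HFD pull-downs below all 6 Sham-HFD ones. ORX-HFD over Sham-HFD was -0.34 ± 0.19 (95% interval -0.73 to 0.05; edgeR adjusted p = 0.741) and -0.25 without sample numbers 10 and 12. In the supernatants Hes5 ran from 9.62 to 20.5 CPM (median 14.9) in ORX-HFD and from 8.11 to 20.1 CPM (median 12.9) in Sham-HFD, against 8.43 to 14.5 CPM (median 9.58) in Sham-chow. There 4 of 7 ORX-HFD supernatants lay above all Sham-chow ones, and the log2 fold change was 0.47 ± 0.19 (95% interval 0.07 to 0.87; edgeR adjusted p = 1.00). The difference between the fractions in the response of Hes5 to ORX-HFD over Sham-chow was -0.55 ± 0.28 (95% interval -1.11 to 0.01; edgeR adjusted p = 0.737).

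For the glial transcription factors the pull-down groups overlapped closely. Sox9 ran from 814 to 1404 CPM (median 1172) in ORX-HFD and from 1023 to 1627 CPM (median 1131) in Sham-HFD, against 957 to 1402 CPM (median 1189) in Sham-chow. Its 3 log2 estimates lay between -0.03 and 0.01, and the 95% interval for ORX-HFD over Sham-HFD was -0.28 to 0.22. Sox2 ran from 285 to 482 CPM (median 409.9) in ORX-HFD and from 324 to 458 CPM (median 379) in Sham-HFD, against 322 to 426 CPM (median 366) in Sham-chow. Nfia ran from 922 to 1382 CPM (median 1234) in ORX-HFD and from 1033 to 1299 CPM (median 1215) in Sham-HFD, against 771 to 1420.0 CPM (median 1176) in Sham-chow. The log2 estimates for ORX-HFD over Sham-chow were 0.12 ± 0.10 for Sox2 and 0.09 ± 0.10 for Nfia, and 0.06 and 0.05 without sample numbers 10 and 12. Nfib ran from 524 to 767 CPM (median 648) in ORX-HFD and from 485 to 673 CPM (median 598) in Sham-HFD, against 509 to 685 CPM (median 604) in Sham-chow. Its estimate for ORX-HFD over Sham-HFD was 0.15 ± 0.09 (95% interval -0.04 to 0.33; edgeR adjusted p = 0.744), and 0.09 without those numbers. The Sox9 estimates changed sign without them, and lay between -0.02 and 0.04.

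Notch2, Hes1 and the Id genes gave no call in the pull-downs either. Notch2 ran from 53.3 to 68.9 CPM (median 61.7) in ORX-HFD and from 47.9 to 67.3 CPM (median 57.9) in Sham-HFD, against 52.4 to 72.2 CPM (median 59.2) in Sham-chow. Hes1 ran from 76.6 to 111 CPM (median 81.6) in ORX-HFD and from 54.1 to 96.3 CPM (median 74.7) in Sham-HFD, against 60.6 to 89.3 CPM (median 82.9) in Sham-chow. Both overlapped across the 3 groups, with ORX-HFD over Sham-HFD at 0.11 ± 0.09 for Notch2 and 0.19 ± 0.12 for Hes1. Without numbers 10 and 12 the Hes1 estimate was 0.11. Id3 ran from 296 to 559 CPM (median 373) in ORX-HFD and from 251 to 441 CPM (median 361) in Sham-HFD, against 292 to 445 CPM (median 350.3) in Sham-chow. Id4 ran from 167 to 246 CPM (median 191) in ORX-HFD and from 172 to 208 CPM (median 199) in Sham-HFD, against 164 to 312 CPM (median 202) in Sham-chow. The estimates for ORX-HFD over Sham-HFD were 0.17 ± 0.14 for Id3 and 0.07 ± 0.12 for Id4, against 0.05 and 0.01 without numbers 10 and 12. With all libraries, the intervals of every member in this comparison held 0.

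In the supernatants, 0 of 10 members were called for ORX-HFD against Sham-HFD, for ORX-HFD against Sham-chow and for Sham-HFD against Sham-chow, where 0.0% of 14628 genes tested were called each time. Hes5, described above, was the 1 member under an unadjusted p of 0.05, in the comparison of ORX-HFD with Sham-chow, where 2.26% of genes tested were. The other supernatant comparisons had 0 members under it, where 3.0% of genes were for ORX-HFD against Sham-HFD and 1.41% for Sham-HFD against Sham-chow. The estimates for ORX-HFD over Sham-HFD were positive for 8 of 10 members with a median of 0.17 (all genes 0.02), and for ORX-HFD over Sham-chow for 8 of 10 with a median of 0.19 (all genes 0.00). Sox9 ran from 35.5 to 110.1 CPM (median 53.9) in ORX-HFD and from 30.9 to 108 CPM (median 41.6) in Sham-HFD, against 27.2 to 95.3 CPM (median 36.8) in Sham-chow supernatants. Id4, in contrast, ran from 50.2 to 66.0 CPM (median 59.2) in ORX-HFD and from 55.9 to 68.6 CPM (median 63.6) in Sham-HFD, against 53.3 to 70.7 CPM (median 61.6) in Sham-chow. Their log2 estimates for ORX-HFD over Sham-chow were 0.47 ± 0.34 for Sox9 and -0.14 ± 0.08 for Id4, neither of them called. Astrocyte markers were higher in estimate in the same supernatants, 12 of 12 with a median log2 fold change of 0.57 and none called, at a summed 958 to 3017 CPM in ORX-HFD, 930.1 to 2928 CPM in Sham-HFD and 694 to 2798 CPM in Sham-chow. Their part in the members' values was not tested.

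The responses were compared between fractions as well, and 0 of 10 members were called in any of the 3 differences (background 0.0064% for ORX-HFD against Sham-HFD, 0.0128% for ORX-HFD against Sham-chow and 0.0% for Sham-HFD against Sham-chow, of 15629 genes). In the same order, 4.43%, 6.66% and 2.55% of genes tested, and 0 members each time, were under an unadjusted p of 0.05. Among the other pathway genes, 0 of 55 Notch pathway genes, 0 of 26 BMP genes and 0 of 25 glial factors were called in any pull-down treatment comparison. The Notch pathway gene with the smallest p for ORX-HFD over Sham-chow in pull-downs was the coactivator Maml1, at 0.64 ± 0.21 (edgeR adjusted p = 0.369), and 11 of 55 were under an unadjusted p of 0.05, beside 11.1% of all genes. For ORX-HFD over Sham-HFD it was again Maml1, at 0.57 ± 0.22 (edgeR adjusted p = 0.741), with 5 of 55 under 0.05, beside 6.53%. The smallest p of the BMP list belonged to the receptor genes Acvr1 for ORX-HFD over Sham-HFD (0.42 ± 0.14, edgeR adjusted p = 0.741) and Acvr2a for ORX-HFD over Sham-chow (0.34 ± 0.12, adjusted p = 0.369). Among glial factors it was Gli2, a Hedgehog effector, in both (0.24 ± 0.13 and 0.33 ± 0.12), without a call. For Sham-HFD over Sham-chow the leading genes of the lists were Jag1 (0.45 ± 0.21), Bmpr1a (0.19 ± 0.10) and Olig2 (0.30 ± 0.14), and their edgeR adjusted p was 1.00.

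Within the supernatants, most members followed the level of the astrocyte markers from library to library. The mean log2(CPM + 0.5) of the 12 markers, a list that holds no member, ran from 4.86 to 6.90 in ORX-HFD, 4.88 to 6.81 in Sham-HFD and 4.32 to 6.75 in Sham-chow supernatants. Sox9 tracked it most closely (Pearson r = 0.98, permutation p = 1e-05, the smallest that 100000 permutations can give; Spearman rho = 0.97; slope 0.78 log2 units per unit). Without the 2 libraries farthest from the median, numbers 1 and 22, the r of Sox9 was 0.98, and within treatment groups it was 0.98. Over the 20 supernatants, 9 of 10 members had adjusted permutation p-values under 0.05 for both r and rho. These were Nfia (r = 0.89), Sox2 (0.81), Id3 (0.81), Hes1 (0.78), Nfib (0.74), Notch1 (0.74), Notch2 (0.72) and Hes5 (0.56) beside Sox9. Hes5 dropped to r = 0.40 without those 2 libraries, so its relation leaned on them. Id4 missed the threshold, with r = 0.35 (rho = 0.29, permutation p = 0.136, adjusted 0.136) and a slope of 0.06. Within treatment groups the r of Id4 was 0.55, beside 0.50 for Hes5, and without those 2 libraries it was 0.37. All libraries of 1 fraction share the CPM scale, and how much astrocyte RNA remained in each supernatant was not measured otherwise. The supernatants with the highest marker means (6.67 to 6.90) were numbers 1, 8, 11 and 22. The pull-downs of these same numbers were the ones with over 10% of counts in Gm42418 (13.3 to 18.2%). The part of this in the correlations was not tested.

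**Figure D4:**
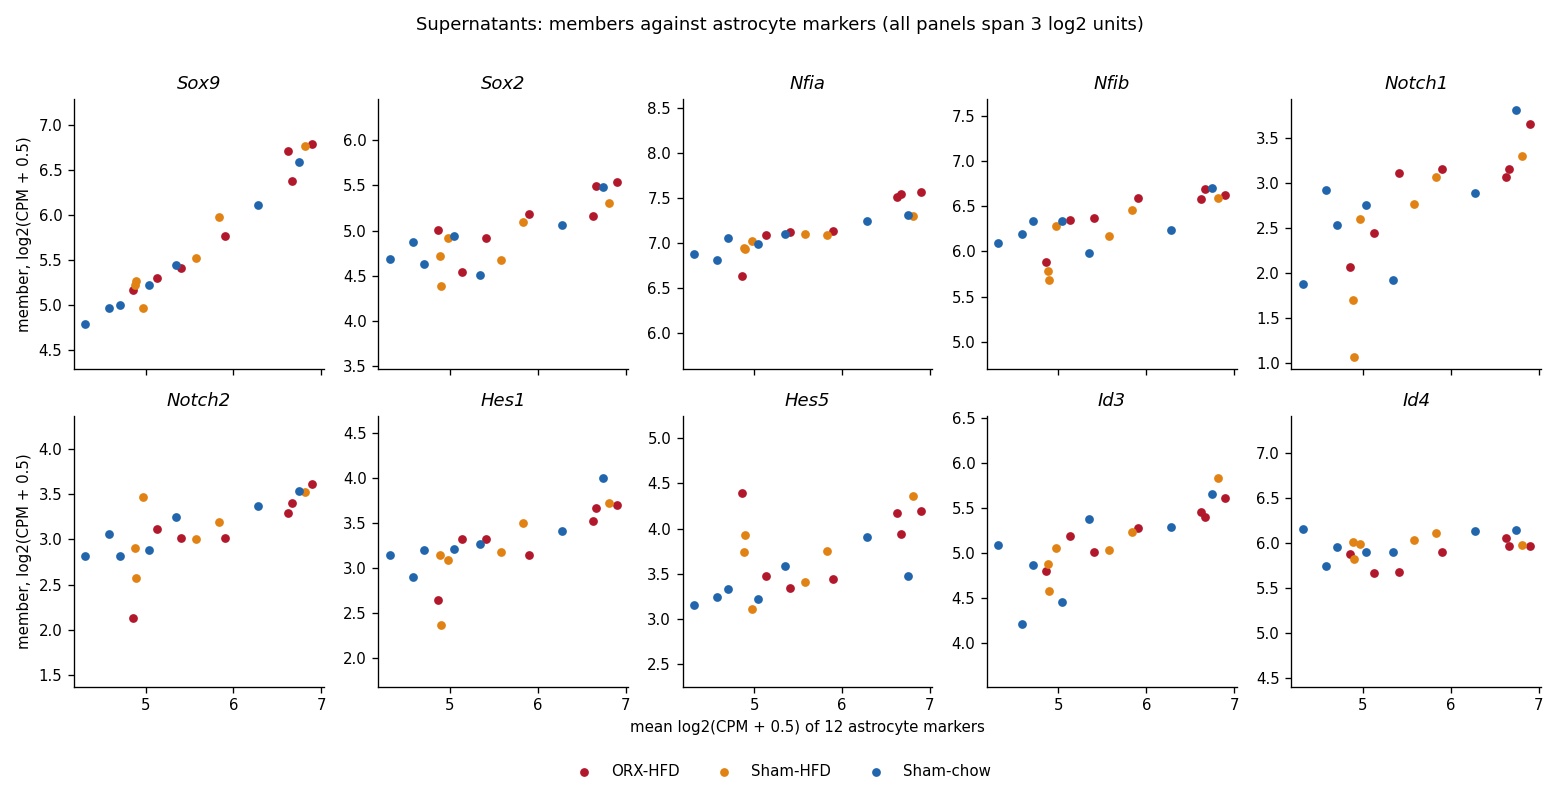
Level of each of the 10 genes, as log2(CPM + 0.5), against the mean log2(CPM + 0.5) of 12 astrocyte markers in the 20 supernatants, coloured by treatment, with every vertical axis spanning 3 log2 units. Sox9 climbs with a slope of 0.78 and Id4 has a slope of 0.06.

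In the pull-downs the same markers varied less, from 10.15 to 10.66 in ORX-HFD, 10.45 to 10.71 in Sham-HFD and 10.30 to 10.78 in Sham-chow. There 5 of 10 members had adjusted permutation p-values under 0.05 for both r and rho: Nfia (r = 0.76), Sox2 (0.72), Nfib (0.63), Id3 (0.59) and Hes1 (0.51). Without the 2 libraries farthest from the median, numbers 12 and 22, these became 0.53, 0.51, 0.54, 0.53 and 0.54. Sox9 (0.04), Notch2 (0.00) and Id4 (-0.02) did not follow the markers there, and Notch1 (0.23) and Hes5 (0.45) missed the threshold.

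Pairs of members were compared across the 20 pull-downs on the log2(CPM + 0.5) scale. Of 45 pairs, 8 had an adjusted permutation p under 0.05 for r and 7 of these for rho too, and all 8 were positive. Nfib and Id3 were the closest (r = 0.86, rho = 0.81, adjusted p = 0.0009; 0.75 without the 2 libraries farthest in Nfib, numbers 1 and 10, and 0.87 within treatment groups). Nfia paired with Hes5 (r = 0.74, adjusted p = 0.0156), but that fell to 0.49 without numbers 12 and 22. The remaining pairs were Sox2 with Nfia (0.69), Nfib with Hes1 (0.64), Sox2 with Hes1 (0.64), Nfia with Nfib (0.62), Sox2 with Nfib (0.61) and Notch1 with Hes1 (0.60), of which Notch1 with Hes1 missed the threshold for rho (adjusted p = 0.0518). Without numbers 10 and 12, r was 0.79 for Nfib with Id3, 0.49 for Nfia with Hes5, 0.46 for Nfib with Hes1 and 0.44 for Notch1 with Hes1, and 0.51 to 0.84 for the other pairs. Hes5 and Id4 gave r = -0.55 over all 20 pull-downs (adjusted permutation p = 0.0904, rho = 0.05) and r = 0.51 over the 18 without numbers 10 and 12, so the sign rested on those libraries. Those libraries held the lowest Hes5 and highest Id4 and were left out after seeing the data. The change of sign therefore follows in part from that choice and is no test of the relation. In number 12 Id4 stood at 312 CPM with Hes5 at 50.9 CPM, and in number 10 Id4 stood at 246 CPM with Hes5 at 69.4 CPM, whereas the other pull-downs held 109 to 182 CPM of Hes5.

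**Figure D5:**
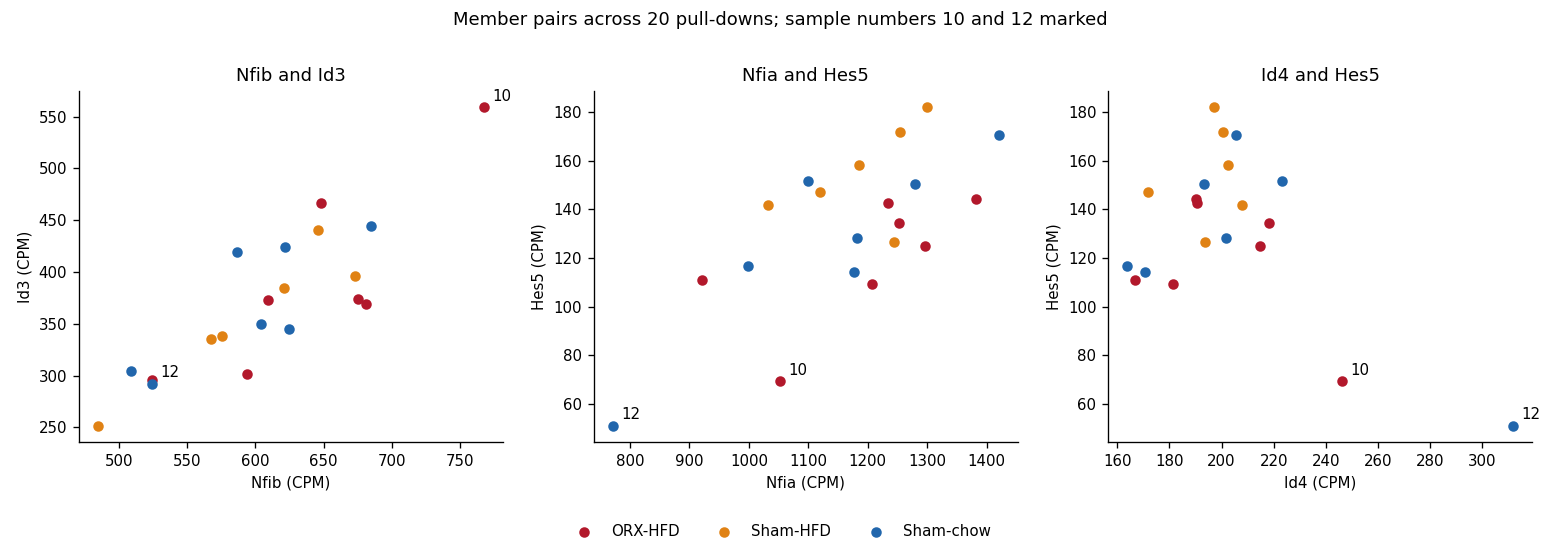
Level in CPM of 3 member pairs across the 20 pull-downs, 1 point a library, coloured by treatment, with sample numbers 10 and 12 marked. Nfib and Id3 climb together (r = 0.86), while the negative r of Id4 and Hes5 (-0.55) turns to 0.51 without the marked libraries.

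For each member, the genes with the most similar profile over the 40 libraries were found by the root mean square difference of centred log2 CPM, among 10474 genes at a mean of 5 CPM or more. This likeness is dominated by the gap between the fractions. Nearest to Sox9 were Gpam (0.23), Lfng (0.25), whose product modifies Notch receptors, and Mmd2 (0.25). Sox2 lay nearest to Tmem47 (0.16), Timp3 (0.17) and its relative Sox1 (0.17), and Nfia lay near Itpr2 (0.13) and Cnn3 (0.19). Nfib was closest to Gng12 (0.16), Dag1 (0.17) and Agpat5 (0.18). The neighbours of Notch1, Ptprz1 (0.31), Luzp2 (0.32) and Itgb8 (0.32), were the most distant, and those of Notch2 included Nfib (0.23) and Cpne3 (0.23). Hes1 lay nearest to Fermt2, Lix1l and Hadhb (0.18 to 0.19) and Hes5 to Gdpd2 (0.25), Cpe (0.29) and Pygb (0.29). Id3 was nearest to Gpm6b (0.22), Ctso (0.24) and Nadk2 (0.24), and Id4 to Aldh5a1 (0.18), Pigh (0.18) and Fkbp14 (0.19).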

How the data were processed

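The deposited estimated counts per gene, 1 column for each of 40 libraries, were used unscaled, and 12.7% of their non-zero values were not whole. Per the labels' protocols, polyadenylated RNA went into the QuantSeq FWD kit, which reads near the 3′ end. Per the submitters' processing notes, Trim Galore 0.6.4, Salmon 1.9.0 and build GRCm38 were used, without their settings, the annotation or the strand setting being stated. A second deposited table, named TPM, holds signal values that are proportional to the counts by library and whose sums pass what TPM allow in some libraries, so it was not treated as TPM.

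Counts were rounded and fitted with edgeR 4.0.16 in R 4.3.3 (filterByExpr minimum count 10, TMM, robust quasi-likelihood), by fraction for treatments and over 40 libraries between fractions, and called at a Benjamini-Hochberg adjusted p under 0.05 over all genes tested. CPM are TMM-scaled. The code was tested on simulated data. Alternatives used DESeq2 1.42.0, limma 3.58.1 with voom, limma on log2(signal + 1) of the second table, RLE factors, no filter, other sets of libraries and a replicate block. Leaving out sample numbers 10 and 12 was chosen after seeing the data. Correlations used 100000 permutations. No libraries were identical.

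The genes named are the 10 members and, from each list, up to 4 called genes a direction with the smallest p or, with none called, the 1 with the smallest p. Notch ligands, receptors and target repressors are always named between fractions. A few genes that the rule or the likeness search picked are not reported here. Members and lists were chosen with earlier results of these data known.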

Additional observations from a re-analysis of the deposited data

Results flagged for a closer look

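Within groups of 6 or 7 libraries, the highest and lowest values of each member were compared with the rest of their group by Dixon's gap ratio, in 60 groups. Chance flags about 1 in 20 such groups, and 5 values passed. Notch1 was low in the Sham-chow pull-down of number 12, at 82.4 CPM beside 113 to 134 CPM in the other pull-downs of that group. Id4 was high in that same pull-down, at 312 CPM beside 164 to 223 CPM. Hes1 was high in the ORX-HFD pull-down of number 10, at 111 CPM beside 76.6 to 88.9 CPM. The Sham-chow supernatant of number 8 was high in Notch1, at 13.5 CPM beside 3.18 to 7.08 CPM, and in Hes1, at 15.5 CPM beside 6.97 to 10.1 CPM. That supernatant also had the highest astrocyte marker mean of its group, 6.75 on the log2(CPM + 0.5) scale, and the part of this in its Notch1 and Hes1 values was not tested.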

How the results depend on the processing

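All 10 members were called higher in pull-downs under each of the 9 alternatives, and no member was called between treatments or in a difference between fractions under any. Genes called between fractions numbered 13561, and 13263 to 17938 over the alternatives. Treatment calls over all genes were few and moved with the tool. ORX-HFD over Sham-HFD in pull-downs (0 calls) gave 11 with DESeq2, 4 without the Gm42418-rich pull-downs, 6 with 40 libraries fitted together and 3 without numbers 10 and 12. ORX-HFD over Sham-chow (2) gave 12 with DESeq2, 1 with voom and 6 with 40 libraries together. In supernatants (0), DESeq2 gave 3 and 1 and the fit of 40 libraries 1 and 1. The differences between fractions (0 for Sham-HFD over Sham-chow, 1 for ORX-HFD over Sham-HFD, 2 for ORX-HFD over Sham-chow) gave 4, 6 and 7 with DESeq2. The second of them gave 0 with voom, with the other table, without the Gm42418-rich samples and with the replicate block, and the third gave 1 with voom. The cause was not tested.

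Each pull-down was set against the 6 or 7 supernatants of its group. Its r with the supernatant of its own number was small (-0.07 to 0.15, over 0.1 in 5 of 20 pairs). Even so, the own number gave the highest r in 10 of 20, where a random pick would give it 1 time in 6 or 7. The Gm42418-rich pull-downs also shared numbers with the supernatants highest in astrocyte markers. The fractions of 1 number were thus not shown to be unrelated. The main tests did not take numbers as pairs because the labels do not define them as such. With the replicate block, 13485 genes were called between fractions and 2 in the difference for ORX-HFD over Sham-chow.

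Of 840 member estimates under alternatives, 803 had the main direction and call, and 37, none called, changed sign. Without numbers 10 and 12, pull-down estimates became 0.036 (Sox9, ORX-HFD over Sham-HFD), then 0.020 (Sox9), -0.048 (Id3) and 0.027 (Id4) for ORX-HFD over Sham-chow, and -0.016 (Sox9), -0.0089 (Nfia) and 0.015 (Id4) for Sham-HFD over Sham-chow. Differences between fractions became 0.056 (Id4, Sham-HFD over Sham-chow), and -0.082 (Hes1) and -0.066 (Id3) for ORX-HFD over Sham-HFD. Without the Gm42418-rich samples, pull-down Sox9 became 0.048 for ORX-HFD over Sham-HFD and -0.080 for Sham-HFD over Sham-chow, where Nfib became 0.0016. Differences became 0.094 (Hes5, Sham-HFD over Sham-chow), -0.039 (Id3, ORX-HFD over Sham-HFD), and 0.013 (Sox2), 0.010 (Nfia), -0.0056 (Notch1) and 0.023 (Notch2) for ORX-HFD over Sham-chow. For Sham-HFD over Sham-chow, voom gave -0.00087 (Sox9, pull-down), -0.0030 (Notch2, supernatant) and a difference of 0.046 (Hes5). Its differences were -0.0074 for Id3 (ORX-HFD over Sham-HFD) and 0.0084 for Notch2 (ORX-HFD over Sham-chow). The other table gave -0.022 for Hes6 between fractions, 0.0072 for supernatant Nfia and a difference of 0.069 for Hes5 (both Sham-HFD over Sham-chow), and a difference of 0.014 for Notch2 (ORX-HFD over Sham-chow). The block gave differences of 0.037 for Hes5 (Sham-HFD over Sham-chow) and -0.014 for Id3 (ORX-HFD over Sham-HFD). Supernatant Nfia for Sham-HFD over Sham-chow was 0.0020 without a filter and 0.0037 with 40 libraries together. Supernatant Notch2 for ORX-HFD over Sham-chow was 0.011 without a filter, 0.0100 with 40 libraries, 0.00031 with RLE, 0.00032 with DESeq2 and 4.7e-05 without mitochondrial genes and Gm42418. The difference of Hes1 for ORX-HFD over Sham-HFD was -0.0015 without a filter.

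Supernatant Notch1 rested on 17 to 134 estimated counts a library, and its minimum was the lowest of the 10 genes.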
